A study of Mus musculus with 6 samples.

Results

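The 4 mature miRNAs described here are both arms of miR-9 (mmu-miR-9-5p and mmu-miR-9-3p) and both arms of miR-124 (mmu-miR-124-5p and mmu-miR-124-3p), found by their exact names among the 1915 mature miRNAs listed in each count table. All 4 were listed in every library. The tables come from small RNA-seq of whole brain from wild-type C57BL/6 mouse embryos at E15.5 (E for embryonic day). There were 3 libraries of each sex, and the study asked which miRNAs are sex-biased at this stage. No embryo was treated, and sex, which was read from the presence of testicular cords, is the only difference between the groups that the labels give. Each library was made from RNA pooled from 2 to 3 embryos, so the replicates are pools. The RNA came from whole brain in bulk, so a change in the number of cells of a type cannot be told apart from a change in the miRNA per cell.

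miRNAs are cut from a hairpin precursor, and each hairpin can give a mature miRNA from its 5p and from its 3p side, called its arms. Usually 1 arm is loaded into the silencing complex, where its seed (bases 2 to 8) pairs with target mRNAs, and the other is degraded. miR-9 is made in neural progenitors and in neurons, and is known to push progenitors towards differentiation by repressing genes such as Nr2e1 and Hes1. Both of its arms are known to be functional: miR-9-5p represses the neuronal gene silencer Rest and miR-9-3p its partner Rcor1. miR-124 is made in neurons, where its 3p arm represses Ptbp1, a splicing repressor, and Ctdsp1, a phosphatase that works with Rest. miR-124-5p is the arm of that hairpin regarded as the passenger.

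The mature miR-9 sequences (RefSeq, GRCm38.p6) are shown because their seeds set the targets of each arm, and the seed is in capitals.
miR-9-5p: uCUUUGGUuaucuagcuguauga
miR-9-3p: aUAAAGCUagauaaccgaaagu
The arms have different seeds, and no other listed miRNA with a sequence in that table has either seed (the table holds 1623 of the 1915, or 84.8%). The miR-9 arms come from 3 hairpins, which are shown because the arms, in capitals, are the same in each while the loop between them, in lower case, is not.
Mir9-1: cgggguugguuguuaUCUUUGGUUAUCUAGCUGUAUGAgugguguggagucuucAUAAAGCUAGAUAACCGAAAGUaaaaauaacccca
Mir9-2: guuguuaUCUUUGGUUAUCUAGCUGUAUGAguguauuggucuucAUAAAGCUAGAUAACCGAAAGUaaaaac
Mir9-3: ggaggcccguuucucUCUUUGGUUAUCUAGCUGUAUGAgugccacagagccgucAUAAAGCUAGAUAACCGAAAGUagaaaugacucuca
In NCBIM37 (mm9), the build of the counts, the hairpin of Mir9-1 matched chr3:88019520-88019608, in an intron of the lincRNA gene Gm3764. That of Mir9-2 matched chr13:83878419-83878490, within an exon of the lincRNA gene C130071C03Rik, and that of Mir9-3 matched chr7:86650150-86650239, in an intron of the lincRNA gene AI854517. All 3 lie on the forward strand. A mature read of either arm therefore cannot be assigned to 1 of the 3 loci. For miR-124, the annotation (GENCODE vM1) names Mir124a-1 at chr14:65209494-65209578, within an exon of the lincRNA gene A930011O12Rik, and Mir124a-3 at chr2:180628736-180628822, where it lists no other gene. Besides these lincRNA genes, it lists an unnamed miRNA gene over Mir9-1, on the other strand, and one over Mir9-3. A gene named Mir124a-2 was also looked for in this annotation and was not found, so the miR-124 loci given here may be incomplete.

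Levels are given in CPM, the reads of a miRNA scaled to a total of 1000000 reads on all miRNAs of its library. The library totals ranged from 14802675 to 59362011 reads. Female library 2 stands apart, with the highest total, the fewest miRNAs detected (660 against 790 to 915 in the other 5) and a median of 1846.5 reads per detected miRNA against 218 to 352. Results are therefore also given without that library where it matters. For these 4 miRNAs counting error is small, at most 1.18% of the count of miR-124-5p in its shallowest library, so the spread is that between libraries.

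miR-9-5p was the most abundant of all miRNAs in each of the 6 libraries. Its level was 195822, 175466 and 192221 CPM in female libraries 1, 2 and 3. In male libraries 1, 2 and 3 it was 148598, 153038 and 174797 CPM. The lowest female library (library 2) lay just above the highest male library (library 3), so on this scale the sexes did not overlap but nearly touched.

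miR-9-3p was at 55336, 32956 and 35909 CPM in female libraries 1, 2 and 3. It was at 17938, 19617 and 20919 CPM in male libraries 1, 2 and 3. All female libraries lay well above all male libraries, and female library 1 lay far above the other two. In rank, miR-9-3p was between the 3rd and the 5th most abundant miRNA in the female libraries and was the 13th in each male library.

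miR-124-3p was at 9107, 10484 and 8571 CPM in female libraries 1, 2 and 3. Its male levels were 7273, 7644 and 6010 CPM in libraries 1, 2 and 3. The sexes did not overlap, with the highest level in female library 2 and the lowest in male library 3. It ranked between 22nd and 31st over the 6 libraries.

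miR-124-5p was at 485.3, 394.0 and 479.6 CPM in female libraries 1, 2 and 3. In male libraries 1, 2 and 3 it was at 400.9, 358.9 and 411.5 CPM. Female library 2 lay below male libraries 1 and 3, so the sexes overlapped on this scale, the CPM of the library total. The arm ranked between 135th and 150th.

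**Figure D1:**
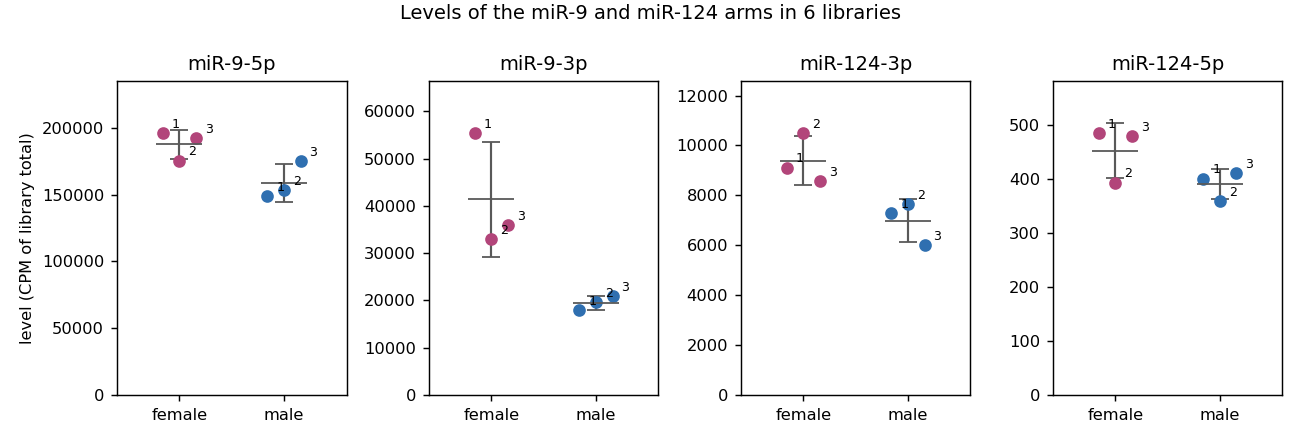
Levels of the 4 arms in CPM of the library total, each panel with its own axis from 0; points are libraries, numbered by replicate, and bars are the mean and SD of 3 libraries. The females lie above the males without overlap for miR-9-5p, miR-9-3p and miR-124-3p, and the sexes overlap for miR-124-5p.

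The order of the 4 arms by level was miR-9-5p, miR-9-3p, miR-124-3p and miR-124-5p in each of the 6 libraries. Mature miRNAs are nearly equal in length, so their CPM are compared here without a correction for length. How well each sequence enters a library was not measured or corrected for. The order and the ratios between different arms are therefore those of reads, and may differ from those of molecules. The level of miR-9-5p was between 3.54 and 8.36 times that of miR-9-3p. The latter was between 2.47 and 6.08 times the level of miR-124-3p, which in turn was between 14.6 and 26.6 times that of miR-124-5p. The order was taken from the mean levels in these same libraries. A two-sided exact sign-flip permutation test over the 6 libraries gave p = 0.0313 for each of the 3 pairs. That is the smallest p it can give, and it was 0.0313 after Benjamini-Hochberg adjustment over them. Once a ratio has the same direction in all 6 libraries this p is fixed, so it does not measure the difference against the spread.

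Over the 6 libraries, both sexes together, the SD of miR-9-3p was 46.9% of its mean, against 19.0% for miR-124-3p, 11.9% for miR-124-5p and 11.2% for miR-9-5p. The difference between the sexes is part of that spread. Among the 3 female libraries the SD was 29.4% of the mean for miR-9-3p, 11.3% for miR-124-5p, 10.5% for miR-124-3p and 5.78% for miR-9-5p. Among the 3 male libraries the order was another, with 12.3% for miR-124-3p, 8.83% for miR-9-5p, 7.67% for miR-9-3p and 7.12% for miR-124-5p.

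Sex differences were tested in edgeR (quasi-likelihood, TMM scaling) on the counts of all 1120 miRNAs with at least 10 reads over the 6 libraries, and a miRNA counted as sex-biased at a Benjamini-Hochberg adjusted p below 0.05. Of the 4 arms, miR-9-3p alone was past the threshold, and it was female-biased. Of all miRNAs tested, 8.48% were past it, with 5.27% female-biased (59 miRNAs) and 3.21% male-biased (36 miRNAs). That split depended on the scaling: with library size alone 39 were female-biased and 50 male-biased, and with DESeq2 and 1 RUVr factor, a term for unwanted variation taken from the residuals, 104 and 121. The mean level of miR-9-3p was 41400.4 ± 12159 CPM in the females and 19491 ± 1495 CPM in the males (SD, n = 3 each). Its log2 fold change, male over female, was -1.20 (standard error 0.28, adjusted p = 0.00508 in edgeR). After TMM scaling its level was thus 2.29 times as high in females. With library size alone, the scale of the CPM, the log2 fold change was -1.09.

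The fold changes of the other 3 arms, also male over female and after TMM scaling, were below 0 but did not pass the test. miR-124-3p, at 9387 ± 986 CPM in the females and 6976 ± 857 CPM in the males (SD, n = 3 each), was at -0.56 on that scale (standard error 0.23, edgeR adjusted p = 0.164). miR-9-5p, at 187837 ± 10863 CPM (SD, n = 3) and 158811 ± 14021 CPM (SD, n = 3), had -0.36 (standard error 0.33, adjusted p = 0.555 in edgeR). miR-124-5p, at 453.0 ± 51.2 CPM (SD, n = 3) and 390.5 ± 27.8 CPM (SD, n = 3), had -0.34 (standard error 0.19, adjusted p = 0.375 in edgeR). Of all miRNAs tested, 50.9% had a log2 fold change below 0. In 3 of the 4 arms the female libraries lay above the male libraries without overlap in CPM, as they did in 8.57% of all miRNAs tested, and none of the arms had the males above the females without overlap, as 15.4% of all miRNAs did. Overlap was judged on CPM of the library total, without the TMM factors of the edgeR fit. These factors were 0.883 for female library 2 and 1.14 for male library 1, so overlap after TMM scaling can differ.

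The calls changed with the method for miR-124-3p and miR-9-3p. miR-124-3p was past the threshold with DESeq2 (log2 fold change -0.53, adjusted p = 0.0425) and with DESeq2 and 1 RUVr factor (-0.47, adjusted p = 0.0182). In edgeR with 1 RUVr factor its call depended on how the dispersion behind those residuals was estimated, with an adjusted p of 0.109 by common and tagwise dispersions and 0.0281 by estimateDisp. Over all alternatives its adjusted p ranged from 0.00629 to 0.535. With each library left out in turn, miR-9-3p kept its call in 5 of 6 edgeR fits, and lost it without male library 1 (-1.08, adjusted p = 0.0955). Over all alternatives its adjusted p ranged from 2.13e-09 to 0.844.

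**Figure D2:**
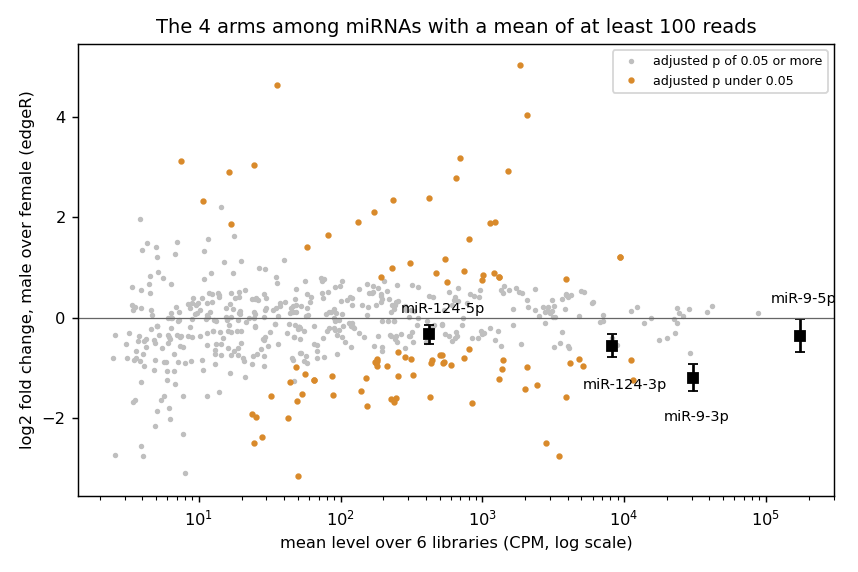
Log2 fold change, male over female, against mean CPM over 6 libraries (log axis) for the 553 miRNAs whose mean count was 100 or more; orange points have an adjusted p under 0.05 and black squares are the 4 arms with their standard errors. miR-9-3p lies at -1.20, the other 3 arms between -0.56 and -0.34.

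Among these 553 miRNAs, 48 had a lower log2 fold change than miR-9-3p. Of the 21 miRNAs with a mean level above 10000 CPM, 3 were past the threshold in edgeR, and miR-9-3p was the most abundant of them. The other two were miR-7a-5p, a neuronal miRNA (log2 fold change -1.24, adjusted p = 0.00187), and mmu-miR-16-5p, a widely expressed miRNA (-0.85, adjusted p = 0.0272), both named after their values were seen.

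Fold changes between the sexes also moved with the base composition of the mature sequence. Among those of the 553 with a sequence, 37 had a GC content under 35%, with a median log2 fold change, male over female, of -0.85, and 13 of the 37 were female-biased in edgeR. The median was -0.45 for the 113 from 35% to under 45%, 0.01 for the 198 from 45% to under 55%, and 0.22 for the 126 at 55% or more. miR-9-3p (31.8% GC) and miR-9-5p (34.8% GC) both belong to the first of these groups, in which miR-9-3p had the 12th and miR-9-5p the 28th lowest fold change. These bins were chosen after seeing the data.

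**Figure D3:**
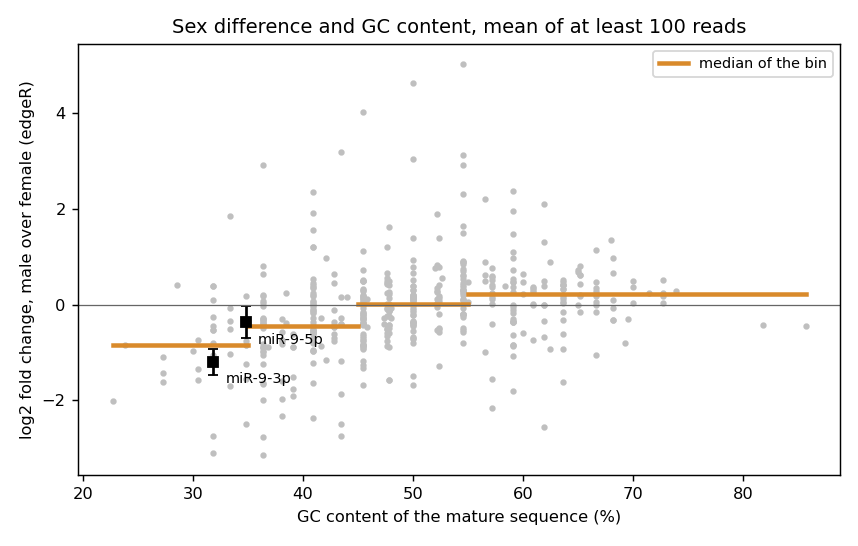
Log2 fold change, male over female, against the GC content of the mature sequence, for miRNAs whose mean count was 100 or more; orange lines are medians of the 4 bins, from -0.85 under 35% GC to 0.22 at 55% or more, and black squares are the miR-9 arms with their standard errors. Both arms lie in the lowest bin, miR-9-5p above its median and miR-9-3p below it.

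With an offset for GC content fitted in each library, miR-9-3p was no longer past the threshold, at -0.62 (standard error 0.36, adjusted p = 0.432 in edgeR), and miR-9-5p was at 0.07 (adjusted p = 0.971 in edgeR). The same 951 miRNAs without the offset gave -1.22 for miR-9-3p (adjusted p = 0.00335 in edgeR). The offset was not fitted for the miR-124 arms.

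Markers of other tissues and of other parts of the nervous system moved with sex as well. The 4 skeletal muscle miRNAs (miR-1a, miR-133a, miR-133b and miR-206, all 3p) summed to 388.1 to 1180.1 CPM in female and 5497.5 to 6139 CPM in male libraries, and all 4 were male-biased. The 6 epithelial miRNAs (the miR-200 family and miR-205-5p) summed to 428.5 to 1133 CPM in females and 7989.5 to 8284 CPM in males, with 5 male-biased. The 6 mesenchymal miRNAs summed to 8310.1 to 16784 CPM in females and 22446 to 26300.3 CPM in males, with 4 male-biased. Another of the 6 went the other way, at a log2 fold change of -0.61 (adjusted p = 0.104 in edgeR). The 5 Hox cluster miRNAs of hindbrain and spinal cord summed to 8928 to 12707 CPM in females and 1761 to 2178 CPM in males, with 3 female-biased. Both endothelial miRNAs were female-biased, while none of the 3 red blood cell, 3 white blood cell and 2 oligodendrocyte miRNAs passed the test in edgeR. The oligodendrocyte miRNAs were at low levels and summed to 14.25 to 18.61 CPM in females and 2.09 to 5.24 CPM in males, without overlap. Over all 1120 miRNAs tested, 3.21% were male-biased and 5.27% female-biased. No marker on these lists was at 0 in all libraries, and the part of these differences in the levels of the 4 arms was not tested.

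Both arms of a hairpin are counted in the same library, so their ratio does not depend on how libraries are scaled. For arm ratios a hairpin stands for a miRNA name with both arms, which may cover several loci. The miR-9 ratio pools reads over its hairpins, so a change in their shares cannot be told apart from a change within a hairpin. For miR-9, the 5p arm had 3.54, 5.32 and 5.35 reads per read of the 3p arm in female libraries 1, 2 and 3. It had 8.28, 7.80 and 8.36 in male libraries 1, 2 and 3. Each male ratio lay above each female ratio, and the male ratios lay close together.

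The mean ratio of the miR-9 arms was 4.74 ± 1.04 in the females and 8.15 ± 0.302 in the males (SD, n = 3 each), a difference of 0.81 on the log2 scale (two-sided exact permutation test, p = 0.1, the smallest that 3 libraries against 3 can give, and 0.2 after adjustment over the 4 values tested this way). To use the spread over many hairpins, the log2 ratio of 5p to 3p reads was fitted with limma for the 160 hairpins whose arms each had a mean of at least 100 reads. In that fit the difference of 0.81 for miR-9, male minus female, had a standard error of 0.25 and an adjusted p of 0.161 in limma, ranking 13th by p and 52nd by size. None of the 160 hairpins had an adjusted p below 0.05 in limma (0.0%), while 29, or 18.1%, had an unadjusted p below 0.05. In 43 of the 160, or 26.9%, the sexes did not overlap.

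The call on the miR-9 ratio depended on which hairpins and libraries were fitted. Among the 67 hairpins with a mean of at least 1000 reads for each arm, 18, or 26.9%, were past the threshold in limma, and miR-9 was 1 of them (difference 0.81, standard error 0.18, adjusted p = 0.00247). Without female library 2 its difference was 0.90 (adjusted p = 0.00733 in limma), in a fit where 30 of 156 hairpins were past the threshold. With the trend on the GC difference of the arms removed it was 0.75 (adjusted p = 0.155 in limma).

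For miR-124, the 3p arm had 18.8, 26.6 and 17.9 reads per read of the 5p arm in female libraries 1, 2 and 3. It had 18.1, 21.3 and 14.6 in male libraries 1, 2 and 3. The sexes overlapped, with female library 2 above the rest. The means were 21.1 ± 4.81 (SD, n = 3) and 18.01 ± 3.35 (SD, n = 3), and the difference was within the spread of the libraries (two-sided exact permutation test, p = 0.5, or 0.6 adjusted). In limma the log2 ratio of 5p to 3p reads differed by 0.22 (standard error 0.23, adjusted p = 0.611), male minus female, and by 0.04 without female library 2 and 0.08 without male library 3.

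**Figure D4:**
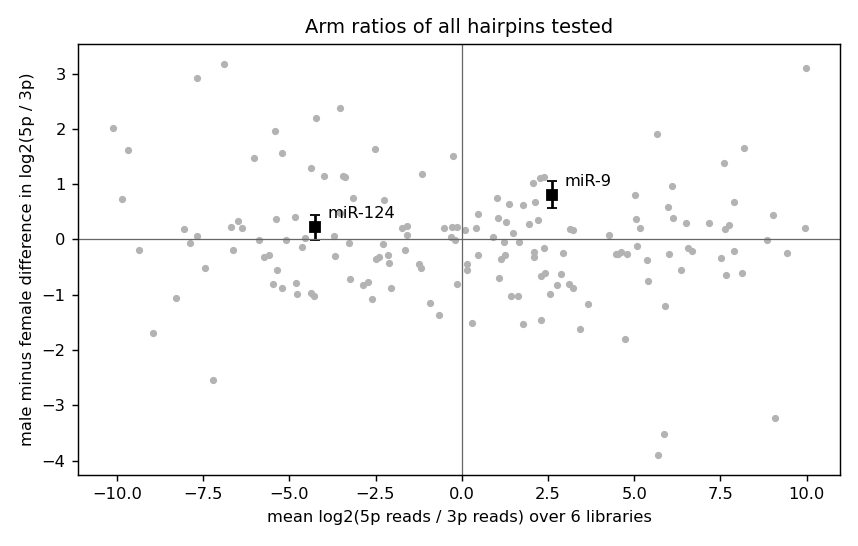
Difference between the sexes in log2(5p reads / 3p reads), male minus female, against its mean over 6 libraries, for 160 hairpins; black squares are miR-9 and miR-124 with the standard error from limma. miR-9 lies at 0.81 and miR-124 at 0.22, and miR-9 ranks 52nd of the 160 by distance from 0.

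The arms of miR-9 and miR-124 were uneven to different degrees. The mean log2 ratio of 5p to 3p reads was 2.62 for miR-9 and -4.26 for miR-124, where the median of its absolute value over the 160 hairpins was 3.69. Thus 60 hairpins had arms more even than those of miR-9, and 83 had arms more even than those of miR-124.

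The ratio of miR-124 to miR-9 sets a neuronal miRNA against one that progenitors also express. Per 100 reads of miR-9-5p there were 4.65, 5.98 and 4.46 reads of miR-124-3p in female libraries 1, 2 and 3. There were 4.894, 4.995 and 3.438 in male libraries 1, 2 and 3. The sexes overlapped, and the highest value was that of female library 2 and the lowest that of male library 3.

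The means were 5.03 ± 0.825 in the females and 4.44 ± 0.871 in the males (SD, n = 3 each) (two-sided exact permutation test on the log2 ratio, p = 0.6, or 0.6 adjusted), a difference of -0.19 on the log2 scale, male minus female. Without female library 2 the difference was -0.06 and without male library 3 it was -0.01. With both arms of each miRNA summed, the means were 4.34 ± 0.769 and 4.18 ± 0.774 reads of miR-124 per 100 reads of miR-9 (SD, n = 3 each). Against miR-9-3p, the direction turned: per 100 of its reads there were 16.5, 31.8 and 23.9 reads of miR-124-3p in female libraries 1, 2 and 3, whereas male libraries 1, 2 and 3 had 40.5, 39.0 and 28.7. That difference was 0.62 on the log2 scale, male minus female, with the sexes overlapping (two-sided exact permutation test, p = 0.2).

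**Figure D5:**
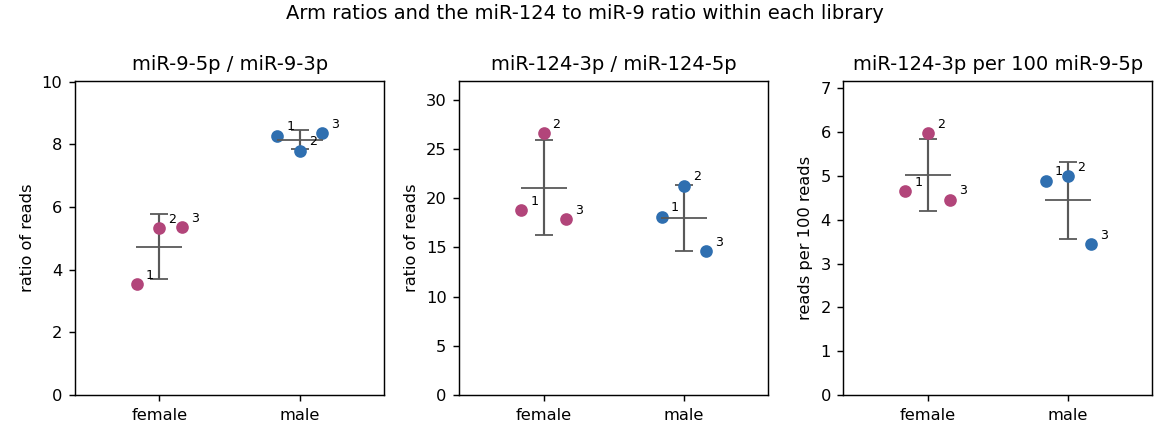
Reads of miR-9-5p per read of miR-9-3p, of miR-124-3p per read of miR-124-5p, and of miR-124-3p per 100 reads of miR-9-5p, with axes from 0; points are libraries, numbered by replicate, and bars are the mean and SD of 3 libraries. The male miR-9 arm ratios lie between 7.80 and 8.36, above the female ones at 3.54 to 5.35, while the sexes overlap in the other 2 ratios.

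Together the 4 arms took 26.1%, 21.9% and 23.7% of the reads on miRNAs in female libraries 1, 2 and 3, whereas they took 17.4%, 18.1% and 20.2% in male libraries 1, 2 and 3. The means were 23.9% ± 2.08 (SD, n = 3) and 18.6% ± 1.46 (SD, n = 3), without overlap (two-sided exact permutation test, p = 0.1, the smallest possible, or 0.2 adjusted). miR-9-5p made up most of that share.

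Likeness of pattern was measured as the root mean square difference of centred log2 CPM over the 6 libraries, among the 552 other miRNAs whose mean count was 100 or more. For miR-9-5p the most alike were miR-185-5p (0.054), miR-124-5p (0.084) and miR-466a-3p (0.085). The same miR-185-5p (0.065), miR-466a-3p (0.078) and miR-9-5p (0.084) were the most alike to miR-124-5p. Those of miR-9-3p were miR-3085-3p (0.174), the neuronal miR-138-5p (0.207) and miR-6977-3p (0.240), and those of miR-124-3p were miR-421-3p (0.086), miR-335-3p (0.144) and miR-216b-5p (0.145). In patterns over these libraries, the arms of miR-9 were not each other's nearest, nor were those of miR-124. At 0.450, miR-9-5p was in place 66 for miR-9-3p, and miR-9-3p was in place 247 for miR-9-5p. At 0.264, miR-124-5p was in place 39 for miR-124-3p, and miR-124-3p was in place 88 for miR-124-5p.

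Other miRNAs of neurons and of dividing progenitors were taken from lists without the 4 arms. All 10 neuronal miRNAs passed the filter, and in edgeR 6 were female-biased, none was male-biased and the median log2 fold change was -0.90. Their summed level was 26294 to 41773 CPM in the female and 20384 to 21225 CPM in the male libraries. Over all 1120 miRNAs tested, 5.27% were female-biased and the median was -0.02. All 59 of those female-biased miRNAs were among the 553 with a mean of at least 100 reads, as were the 10 neuronal miRNAs. The neuronal miRNAs with the lowest fold changes were miR-153-3p (-3.15, standard error 0.43) and miR-137-3p (-1.55, standard error 0.27), with an adjusted p of 1.15e-05 and 0.00027. Those with the highest were miR-212-3p (0.54, adjusted p = 0.48) and miR-129-5p (0.42, adjusted p = 0.248), which did not pass the test in edgeR. With library size alone 4 of the 10 were female-biased, where 39 of all miRNAs were. With the GC offset 3 were, where 32 of all miRNAs were. Without male library 1 there were also 3, of 16 over all miRNAs. Without female library 2 there were 6, of 116 over all miRNAs, and 1 was male-biased.

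Of the 7 miRNAs of dividing progenitors, 3 were female-biased and none male-biased, with a median log2 fold change of -0.48 in edgeR. Their summed level was 22449.7 to 26961 CPM in the female and 27852 to 30601 CPM in the male libraries, so the sum was higher in males. The female-biased members were a small part of that sum, the most abundant having a mean of 674.0 CPM in females and 399.0 CPM in males. The number female-biased was 1 with library size alone, 1 with the GC offset, 4 without female library 2 and 0 without male library 1.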

How the data were processed

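Small RNA-seq was measured in 6 libraries. The authors trimmed adaptors with cutadapt 1.15, mapped reads with Bowtie 1.2.1 to miRBase v.21 and mm9 in the miRDeep2 workflow, and deposited raw counts, as whole reads per mature miRNA, with no normalization. Samples were grouped by sex from the labels. From the counts, CPM of the library total, arm ratios and TMM-scaled fits were computed in R 4.3.3 (edgeR 4.0.16, limma 3.58.1, DESeq2 1.42.0). miRNAs with fewer than 10 reads in all were left out of the test. For arm ratios, 0.5 reads were added to each arm. Standard errors in edgeR are the absolute log2 fold change over the square root of the F statistic. Depth was 14802675 to 59362011 reads. Reads carry no molecular identifiers in the protocol, so counting error does not cover amplification. The p-values rest on the spread between libraries, each from a separate pool, so pools and library preparations cannot be told apart.

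The alternatives were other scalings, DESeq2, 1 RUVr factor (the first singular vector of edgeR's deviance residuals), other filters, a GC offset (loess, span 0.75, for the 951 of 1120 miRNAs, or 84.9%, with a RefSeq sequence), a replicate block and each library left out. The RUVr residuals were first computed with estimateDisp. Common and tagwise GLM dispersions replaced it after the counts of calls, and that of an earlier analysis of these data, had been seen, so both are given. The fit of those 951 miRNAs without the offset and the GC bins were added after seeing the data. Procedures were tested on simulated data. The members and marker lists were chosen with earlier results of these data known. By rule, the miRNAs named are the 4 arms, the 3 most alike to each (prior count 2), and the 2 extremes in each direction over the neuronal and progenitor lists. Outside the rule, miR-7a-5p and miR-16-5p were named after their values were seen, and some muscle and epithelial markers are named only as members of their lists.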

Additional observations from a re-analysis of the deposited data

How the results depend on the processing

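Over the other scalings, tools, filters, blocks and offsets and the 6 fits without a library, the log2 fold changes of miR-9-3p, miR-124-3p and miR-124-5p, male over female, kept their direction wherever they were fitted. The exceptions for miR-9-5p were the GC offset (0.07) and the GC offset with a replicate block (0.17). miR-9-3p lost its call with the GC offset (-0.62), with the GC offset and a replicate block (-0.51) and without male library 1, with a range of -1.30 to -0.92 when single libraries were left out. miR-124-3p gained a call with DESeq2 (-0.53) and with DESeq2 and 1 RUVr factor (-0.47), but in edgeR with 1 RUVr factor only when the residuals came from estimateDisp (-0.51, and -0.49 in DESeq2). Its range was -0.70 to -0.41 when single libraries were left out. With library size alone in place of TMM the median log2 fold change of all miRNAs moved from -0.02 to 0.11, and miR-9-3p was at -1.09.

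The number of sex-biased miRNAs was 95 in edgeR, 137 in edgeR and 225 in DESeq2 with 1 RUVr factor, 228 and 257 with that factor from estimateDisp, 58 with the GC offset and 60 with the GC offset and a replicate block. Among the 6 fits without a library it lay between 30 (male library 1 out) and 203 (female library 2 out), and it was 60 without female library 3. The number of sex-biased arm ratios, 0 in limma, was 18 at a mean of 1000 reads for each arm, 2 with the GC difference of the arms removed, and from 0 to 30 with a library left out, with 30 without female library 2. The miR-9 arm ratio gained a call at 1000 reads (0.81) and without female library 2 (0.90). It lay between 0.61 and 0.91 with a library left out. The log2 ratio of miR-124-3p to miR-9-5p (-0.19) turned to 0.62 against miR-9-3p and lay between -0.28 and -0.01 with a library left out. With a library left out, the log2 ratios of neighbours in the order of levels lay between 2.53 and 2.78, 1.64 and 1.90, and 4.17 and 4.34, where 5 libraries cannot give a p below 0.0625 in the exact test. Apart from the losses by construction there, the causes of these changes were not tested.

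Replicate numbers are not said to mark a litter or batch, so the main fit had no block. Deviations of same-numbered female and male libraries correlated at -0.049 to 0.046 across miRNAs. Those of differently numbered libraries correlated at -0.063 to 0.071. With 3 libraries of each sex, these values cannot show whether same-numbered libraries share a litter or batch. The fit with a replicate block gave 92 sex-biased miRNAs and -1.18 for miR-9-3p and changed no call on an arm or an arm ratio. Sequences of the miR-124 arms were not used, so the GC alternatives give no value for them.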
